A study of Mus musculus with 4 samples.

Results

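The VEGF system of Sca-1 cells from the mouse heart was described with 10 genes, which encode the ligands Vegfa, Vegfb, Vegfc, Vegfd and Pgf, the receptor tyrosine kinases Flt1, Kdr and Flt4, and the neuropilins Nrp1 and Nrp2. All probe sets annotated to these genes were taken, which gave 25 of the 45037 probe sets of the series, where 18193 genes have a probe set of their own. None of the 25 is shared with another gene. Cyc cells came from 6-week-old FVB mice that carry the αMHC-CyclinT1/Gαq double transgene and develop heart failure, and Wt cells came from wildtype littermates of the same age and strain. The α-MHC promoter drives both transgenes in cardiomyocytes. A pool of freshly isolated, magnetically sorted Sca-1 cells from 2 to 3 mice of either sex gave the RNA for each array. Experiments 1 and 2 contributed 1 Cyc and 1 Wt pool each, so n = 2 pools per genotype. In such bulk samples fewer cells of a type and less RNA per cell cannot be told apart.

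Vegfa signals mainly through Kdr (VEGFR2), the main kinase by which endothelial cells are told to divide, migrate and become permeable. Flt1 (VEGFR1) binds Vegfa, Vegfb and Pgf tightly, signals weakly and, as a membrane protein or in a soluble form, keeps Vegfa away from Kdr. Vegfc and Vegfd are made as precursors, are activated by proteolysis and act on Flt4 (VEGFR3), the receptor best known from lymphatic vessels and sprouting capillaries. Nrp1 and Nrp2 are co-receptors with short cytoplasmic tails that bind both VEGF ligands and class 3 semaphorins. In the heart, cardiomyocytes and other non-endothelial cells supply much of the Vegfa and Vegfb, while capillary endothelium carries Kdr, Flt1 and Nrp1.

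No member of the family passed the thresholds of a 2-fold change and an unadjusted p under 0.05 between Cyc and Wt cells. Of the 25 probe sets, 23 reached an intensity of 50 on at least 2 of the 4 arrays and were tested, and 0 of them passed, against 0.851% of all 20680 probe sets tested (limma). At an unadjusted p under 0.05 without the fold threshold the count was also 0 of 23, against 1.99% of all tested probe sets. The smallest p was 0.268, every adjusted p was 1, and all 23 confidence intervals held 0. Of these intervals 12 lay within a 2-fold change both ways, so that for the other 11 probe sets the 4 arrays do not bound the difference to less than 2-fold in this fit. Once the replicate number was added as a block, 18 of the 23 lay within it. An exact two-sided permutation test of 2 against 2 pools cannot give a p below 0.333.

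The sequence upstream of the receptor genes is shown because these genes are the family's endothelial part and their levels were read in every pool. All 10 members matched the RefSeq promoter table (build GRCm38.p6), with 12 windows of 300 bases that run from 250 bases before to 50 bases after a gene start. Capitals mark each GGAA, the core bound by ETS transcription factors, or its reverse complement TTCC, in the 5′ to 3′ direction of the gene. The Kdr window lies at chr5:75978406-75978705 on the minus strand, the Flt1 window at chr5:147725962-147726261 on the minus strand and the Flt4 window at chr11:49609429-49609728 on the plus strand.
Kdr: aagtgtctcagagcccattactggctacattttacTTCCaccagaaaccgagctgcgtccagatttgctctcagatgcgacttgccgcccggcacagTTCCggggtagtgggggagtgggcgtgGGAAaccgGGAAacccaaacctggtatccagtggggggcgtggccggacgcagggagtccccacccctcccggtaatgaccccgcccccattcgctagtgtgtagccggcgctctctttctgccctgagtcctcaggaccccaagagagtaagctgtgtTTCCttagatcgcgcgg
Flt1: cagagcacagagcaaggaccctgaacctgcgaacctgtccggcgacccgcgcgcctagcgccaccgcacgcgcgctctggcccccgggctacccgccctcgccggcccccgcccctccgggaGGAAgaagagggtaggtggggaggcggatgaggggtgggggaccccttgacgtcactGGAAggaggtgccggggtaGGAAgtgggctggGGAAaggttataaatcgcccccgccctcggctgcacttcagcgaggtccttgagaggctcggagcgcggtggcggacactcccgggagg
Flt4: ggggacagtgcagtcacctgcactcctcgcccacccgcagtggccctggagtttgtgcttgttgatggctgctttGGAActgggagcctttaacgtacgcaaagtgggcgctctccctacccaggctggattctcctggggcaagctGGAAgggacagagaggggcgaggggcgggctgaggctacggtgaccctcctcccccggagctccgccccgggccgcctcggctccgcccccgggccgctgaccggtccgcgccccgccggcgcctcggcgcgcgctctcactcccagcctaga
The Kdr window holds 5 such cores, the Flt1 window 4 and the Flt4 window 2. Among 32851 promoter windows of the same length 96% hold at least 1 core on either strand, 84.6% at least 2 and 46.3% at least 4, with a median of 3. The core ACGTG of the hypoxia response element, searched on both strands, was found in 1 of the 12 family windows, against 19.6% of all windows. It was a Vegfa window, at chr17:46025114-46025413 on the minus strand. That start lies downstream of the other Vegfa start, whose window at chr17:46032328-46032627 held no ACGTG. The other common form, GCGTG, was found on either strand in 7 of the 12 and in 32.4% of all windows. The Vegfa window with ACGTG is among these 7, and the other Vegfa window is not. These matches describe letters, not binding. The Vegfd window held 42% G and C and the other family windows 59.3% to 75.3%, against a median of 52.7% over all windows. The part of base composition in the counts was not tested.

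Expression was read as intensity, and an intensity under 50 was taken as near background. At this limit 9 of the 10 genes had a probe set at 50 or more on all 4 arrays, Vegfb being the exception, and 21 of the 25 probe sets did, while 38.7% of all probe sets of the array do. Intensities of different probe sets depend on their probes and are not compared with each other.

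**Figure D1:**
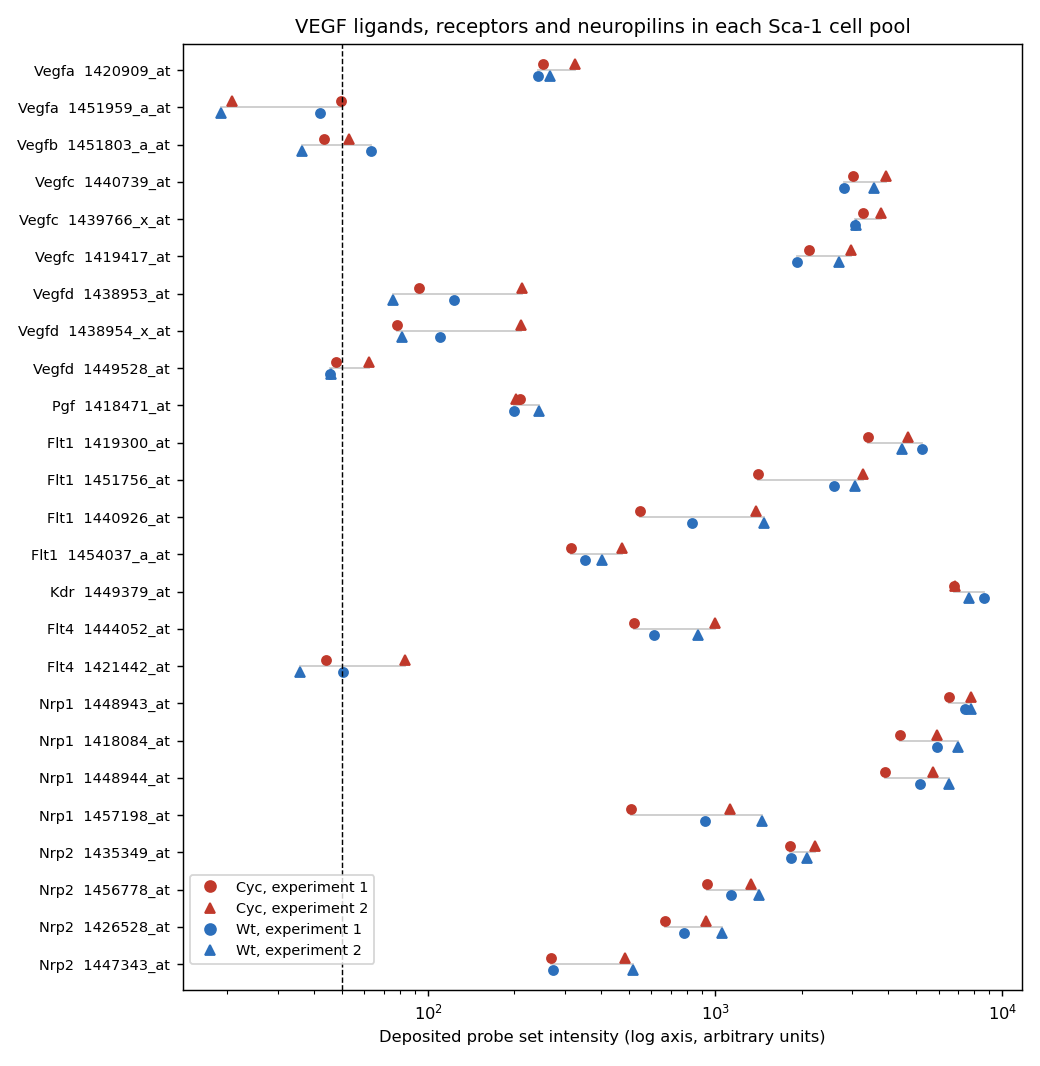
Deposited intensity (log axis, arbitrary units) of the 25 probe sets of the family in the 4 pools, red for Cyc and blue for Wt, circles for experiment 1 and triangles for experiment 2, with a grey line over the range and the dashed line at 50. Red and blue symbols interleave in most rows, and both red symbols lie left of both blue ones at Kdr.

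Among the ligands, Vegfc was read clearly in every pool and at all 3 of its probe sets. Probe set 1440739_at had an intensity of 3032.6 and 3927.1 in the Cyc pools of experiments 1 and 2, against 2813.9 and 3562.7 in the Wt pools. Probe set 1439766_x_at had 3271.6 and 3793.6 in the Cyc pools and 3065.2 and 3099.9 in the Wt pools. The groups overlap at the first and not at the second, where both Cyc pools lie above both Wt pools. This order was found in 1 of the 23 tested probe sets of the family and in 15.1% of all tested probe sets. The third probe set, 1419417_at, had 2126.1 and 2970.7 in the Cyc pools and 1921.0 and 2704.7 in the Wt pools. All 3 were higher in the Cyc pool than in the Wt pool of the same experiment, with log2 fold changes of 0.12, 0.19 and 0.14 on the scale of log2(intensity + 16), which understates changes of dim probe sets. The interval of 1439766_x_at ran from -0.41 to 0.80. Without the Cyc pool of experiment 2 the values of 1440739_at and 1419417_at were -0.06 and -0.10, and without the Wt pool of experiment 1 they were -0.05 and -0.11.

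Vegfa, the ligand of Kdr and Flt1, had an intensity of 250.7 and 325.7 in the Cyc pools, against 240.7 and 266.9 in the Wt pools at 1420909_at. The Cyc and Wt values overlap, and the means were 288 ± 53 in Cyc and 254 ± 18.5 in Wt cells (SD, n = 2 pools each). On the log2 scale the difference was 0.16 (SE 0.25), its interval ran from -0.50 to 0.83, and it was -0.01 without the Cyc pool of experiment 2. A second probe set of Vegfa, 1451959_a_at, which matches several transcripts of the gene, had 49.9 and 20.8 in the Cyc pools and 42.1 and 19.0 in the Wt pools. It stayed under 50 on every array and was not tested.

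Pgf, placental growth factor, binds Flt1 and not Kdr. Its single probe set had 208.4 and 202.6 in the Cyc pools and 199.1 and 242.7 in the Wt pools, and the Cyc values lie between those of the Wt pools. The log2 fold change was -0.09 (SE 0.24), with 0.06 in experiment 1 and -0.24 in experiment 2. Vegfb, the other ligand that binds Flt1 but not Kdr, had 43.4 and 53.2 in the Cyc pools and 63.2 and 36.3 in the Wt pools. Both genotypes thus had 1 pool above and 1 below 50, and no order between them can be read at this signal. Its log2 difference was -0.41 in experiment 1 and 0.40 in experiment 2.

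Vegfd, like Vegfc a ligand of Flt4, was the ligand whose Cyc minus Wt differences lay farthest apart in the 2 experiments. At 1438953_at the intensity was 92.9 and 213.1 in the Cyc pools and 123.0 and 75.4 in the Wt pools. At 1438954_x_at it was 78.1 and 210.4 in the Cyc pools and 110.4 and 81.2 in the Wt pools. The Cyc pool of experiment 2 stands above the other 3 pools at both probe sets, and the Cyc pool of experiment 1 lies below its own Wt pool. The Cyc minus Wt differences on the log2 scale were -0.35 and -0.43 in experiment 1 and 1.33 and 1.22 in experiment 2. The fitted log2 fold changes were 0.49 (SE 0.46) and 0.40 (SE 0.48), and neither passed the thresholds. Without the Cyc pool of experiment 1 both probe sets did pass, with 1.02 and 1.03, in a fit in which 2.81% of all tested probe sets were called higher and the lone Cyc pool is assumed to vary like the Wt pools. Without the Cyc pool of experiment 2 the values were -0.05 and -0.24. The third probe set, 1449528_at, had 47.8 and 62.2 in the Cyc pools and 45.6 and 46.1 in the Wt pools and was not tested.

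Other values moved with those of Vegfd. The gene lies on the X chromosome, and RNAs that mark the sex of the mice differed between the pools. Xist, the RNA of the inactive X, had 1858.5 and 5677.1 in the Cyc pools and 2317.2 and 21.2 in the Wt pools, and Eif2s3y of the Y chromosome had 388.0 and 140.5 in the Cyc pools and 376.7 and 777.6 in the Wt pools. Markers of airway and alveolar epithelium, of which 2 of 9 genes were at 50 or more in all pools and Sftpa1 and Foxj1 under 50 in all, summed to 438 and 16629 in the Cyc pools and to 2771 and 214 in the Wt pools. Scgb1a1 and Scgb3a2, secretoglobins of club cells, made up 35.5% and 94.8% of the sum in the Cyc pools and 89.5% and 7.93% in the Wt pools, and were the only 2 of the 9 genes that ranked the pools as the sum does. The pools ranked in this order at Vegfd 1438953_at and at Flt4 1421442_at, 2 of the 23 family probe sets, and at 2.92% of all tested probe sets. They did not at Vegfd 1438954_x_at, where the Cyc pool of experiment 1 was the lowest. Mesothelial markers, of which 1 of 6 was at 50 or more in all pools, summed to 611 and 2262 in the Cyc pools and to 1245 and 682 in the Wt pools. That 1 gene, Wt1, made up most of the lowest sums, with 478.2 and 596.4 in the Cyc pools and 440.0 and 597.4 in the Wt pools. Macrophage markers, of which 1 of 8 was at 50 or more in all pools and Cd163 under 50 in all, summed to 379 and 1132 in the Cyc pools and to 384 and 198 in the Wt pools. The part of the sex of the mice and of these cells in the values of Vegfd was not tested.

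**Figure D2:**
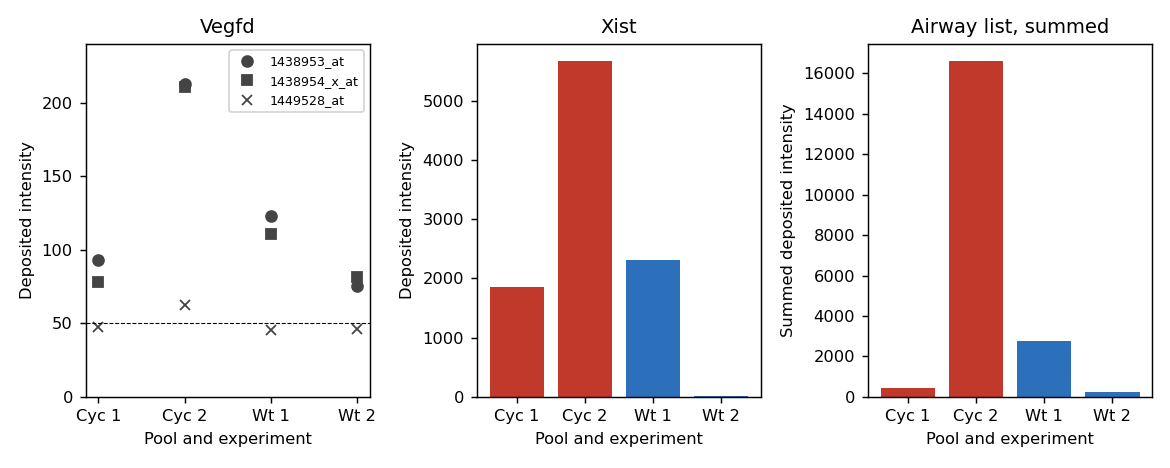
Deposited intensity (arbitrary units) of the 3 probe sets of Vegfd, of Xist and of the summed airway and alveolar list in the 4 pools, Cyc left and Wt right, numbered by experiment, with the dashed line at 50 in the left panel. The Cyc pool of experiment 2 is highest in all 3 panels, at 213.1 for Vegfd 1438953_at and at 16629 for the airway list.

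Kdr, the main signaling receptor of Vegfa, had an intensity of 6785.8 and 6862.3 in the Cyc pools, against 8659.9 and 7669.3 in the Wt pools at its single probe set. Both Cyc pools lie below both Wt pools, the only such case among the 23 tested probe sets of the family, against 8.23% of all tested probe sets. Kdr averaged 6824 ± 54.1 in Cyc and 8165 ± 700 in Wt cells (SD, n = 2 pools each). Its fitted log2 fold change was -0.26 (SE 0.23, limma, adjusted p = 1), with -0.35 in experiment 1 and -0.16 in experiment 2, and the interval from -0.85 to 0.34 holds no 2-fold change in either direction. It also holds 0.

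Flt1, the receptor that binds Vegfa without strong signaling, was measured by 4 probe sets. The first, 1419300_at, had 3408.5 and 4697.7 in the Cyc pools and 5244.2 and 4492.1 in the Wt pools. Probe set 1451756_at had 1408.5 and 3275.4 in the Cyc pools and 2585.3 and 3071.6 in the Wt pools. In both the Cyc pool of experiment 1 was the lowest of the 4 pools, while the Cyc pool of experiment 2 lay above its Wt pool. At 1440926_at the pools of Cyc had 546.9 and 1383.8 and those of Wt 833.4 and 1485.4. At 1454037_a_at they had 316.0 and 474.4 in Cyc and 352.2 and 403.7 in Wt. The Cyc pool of experiment 1 was the lowest pool at all 4 probe sets of Flt1. The log2 fold changes were -0.28, -0.39, -0.35 and 0.04 in the order given, so 3 were below 0 and 1 near it, and the interval of 1440926_at was the widest of them, from -1.80 to 1.10. Without the Cyc pool of experiment 1 the value of 1451756_at was 0.22 and that of 1440926_at 0.31.

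Flt1 was also the one gene of the family that differed between the experiments by the same thresholds. At 1440926_at the pools of experiment 2 exceeded those of experiment 1 by 1.07 on the log2 scale (SE 0.22, limma, adjusted p = 0.064), with a difference of 1.31 between the Cyc pools and of 0.82 between the Wt pools. That was 1 of 23 family probe sets, while 7.52% of all tested probe sets were called higher in experiment 2.

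Flt4, the receptor of Vegfc and Vegfd, had 522.7 and 999.8 in the Cyc pools and 614.4 and 872.9 in the Wt pools at 1444052_at. Experiment 2 was the higher one in either genotype, and the Cyc pools enclose the Wt pools. The log2 fold change was -0.02 (SE 0.41), with an interval from -1.08 to 1.05. At 1421442_at Flt4 had 44.0 and 83.2 in the Cyc pools and 50.6 and 35.9 in the Wt pools, that is, near background in 2 of the 4 pools. Its log2 fold change was 0.39 (SE 0.34). The probe sets of Flt4 thus gave opposite signs, and both intervals held 0.

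Nrp1, the co-receptor of Kdr and receptor of class 3 semaphorins, was lower in the Cyc than in the Wt pool of the same experiment at all 4 of its probe sets, though none passed the thresholds. At 1448943_at it had 6502.9 and 7763.9 in the Cyc pools and 7397.0 and 7773.8 in the Wt pools. At 1418084_at the values were 4422.3 and 5929.8 in the Cyc pools and 5917.9 and 7041.3 in the Wt pools. The Cyc pool of experiment 1 was the lowest pool at both, and at the second the Cyc pool of experiment 2 was close to the Wt pool of experiment 1. At 1448944_at Nrp1 had 3891.0 and 5727.3 in the Cyc pools and 5180.0 and 6529.1 in the Wt pools. At 1457198_at it had 510.1 and 1126.5 in the Cyc pools and 919.6 and 1462.0 in the Wt pools. Cyc and Wt values overlap at each of the 4 probe sets, and in both genotypes the pool of experiment 2 had the higher intensity.

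The log2 fold changes of Nrp1 were -0.09, -0.33, -0.30 and -0.60 in the order above. The last had an interval from -1.86 to 0.65. With the replicate number as a block, which removes the difference between the experiments, its interval ran from -1.13 to -0.07 with an unadjusted p of 0.0335 and an adjusted p of 0.699 (limma), the one probe set of the family with an unadjusted p under 0.05 in that fit, where 6.98% of all tested probe sets had one. It did not reach 2-fold. Without the Cyc pool of experiment 2 it did pass, at -1.16, in a fit that called 5.08% of all tested probe sets lower. The first probe set, 1448943_at, turned to 0.03 without the Cyc pool of experiment 1.

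Nrp2, the neuropilin that also binds Vegfc and Vegfd, had 1816.3 and 2219.0 in the Cyc pools and 1843.2 and 2088.1 in the Wt pools at 1435349_at. The pools order by experiment and not by genotype there. At the other probe sets of Nrp2 too, both pools of experiment 2 lie above both pools of experiment 1. At 1456778_at it had 933.6 and 1332.9 in the Cyc pools and 1132.3 and 1420.3 in the Wt pools. At 1426528_at it had 671.5 and 929.4 in the Cyc pools and 776.3 and 1057.5 in the Wt pools. These values again overlap, with both Cyc pools below the Wt pool of their own experiment. At 1447343_at it had 269.2 and 484.7 in the Cyc pools and 272.1 and 517.9 in the Wt pools. The log2 fold changes of Nrp2 were 0.03, -0.18, -0.19 and -0.05 in this order.

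Agreement between the probe sets of a gene was judged by sign and size. The 3 probe sets of Vegfc, the pair tested for Vegfd and the 4 of Nrp1 each had 1 sign, while those of Flt1, Flt4 and Nrp2 held both signs. Within a gene the fitted values spread by less than the standard errors of the single probe sets at Vegfc, Vegfd and Nrp2, and by more than the smallest of them at Flt1, Flt4 and Nrp1. In the fit by genotype alone all intervals of these 6 genes held 0.

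**Figure D3:**
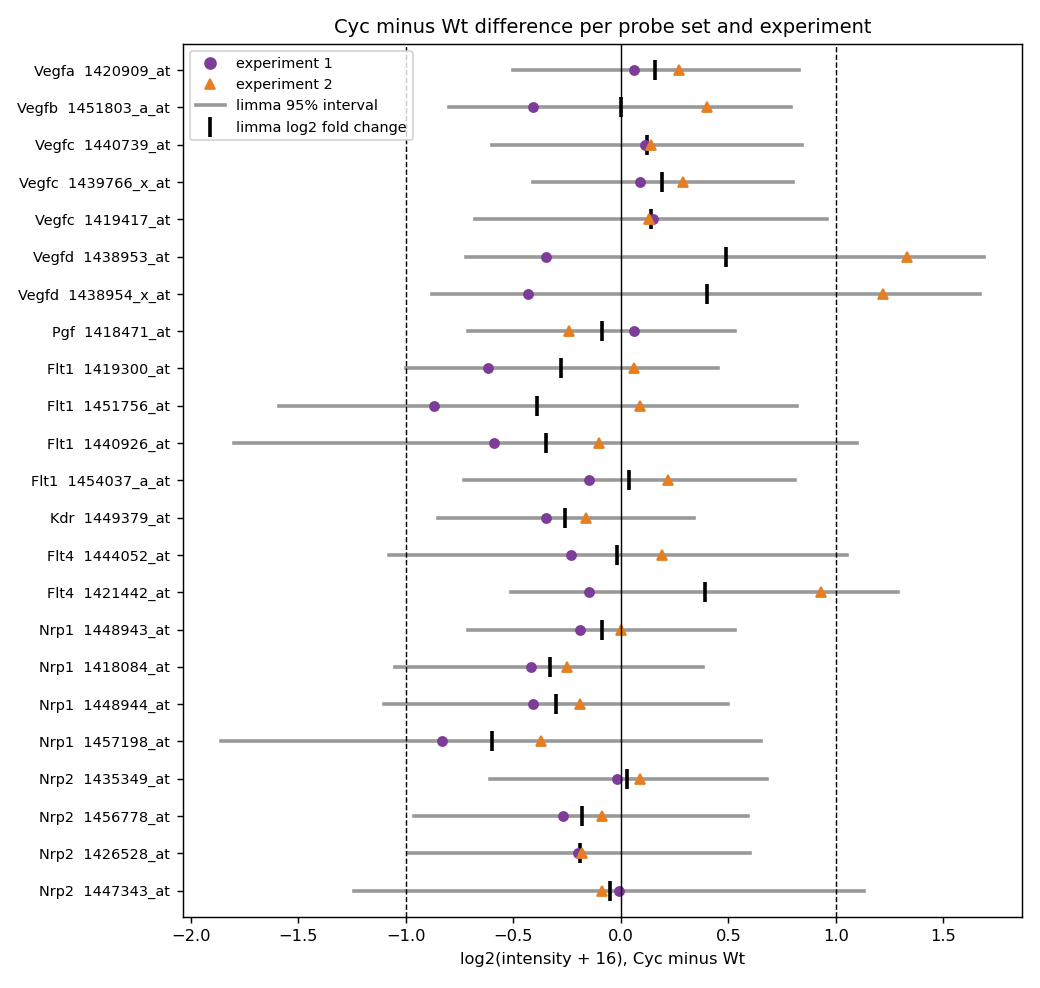
Cyc minus Wt difference on the log2(intensity + 16) scale for the 23 tested probe sets, as circles for experiment 1 and triangles for experiment 2, with limma's log2 fold change as a black tick and its 95% interval as a grey bar. Dashed lines mark a 2-fold change, and every bar crosses 0.

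Experiment by experiment, the family did not move one way. In experiment 1 the Cyc pool was lower than the Wt pool at 18 of 23 probe sets (78.3%), against 61.8% of all tested probe sets, and in experiment 2 at 10 of 23 (43.5%), against 41.2%. The median log2 difference of the family was -0.23 in experiment 1 and 0.09 in experiment 2, where the medians over all tested probe sets were -0.10 and 0.06. Both experiments gave a higher value in Cyc at 4 probe sets, the 3 of Vegfc and the 1 of Vegfa, and a lower value at 9, while 10 had opposite signs. Among all tested probe sets 26.1% were higher in both and 29.1% lower in both. The median of the fitted log2 fold changes was -0.05 for the family and -0.02 for all tested probe sets.

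The difference between the experiments was larger than that between the genotypes at 18 of the 23 probe sets (78.3%), and at 69.1% of all tested probe sets. Both pools of experiment 2 were above both pools of experiment 1 at 15 of 23 (65.2%), against 51.6% of all. The Cyc pool of experiment 1 was the lowest of the 4 pools at 15 family probe sets (65.2%), against 51% of all. It was the highest at 0, against 14% of all. The Cyc pool of experiment 2 was the highest at 11 (47.8%), against 44.4% of all, and the Wt pool of experiment 2 at 9 (39.1%), against 30.8% of all.

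**Figure D4:**
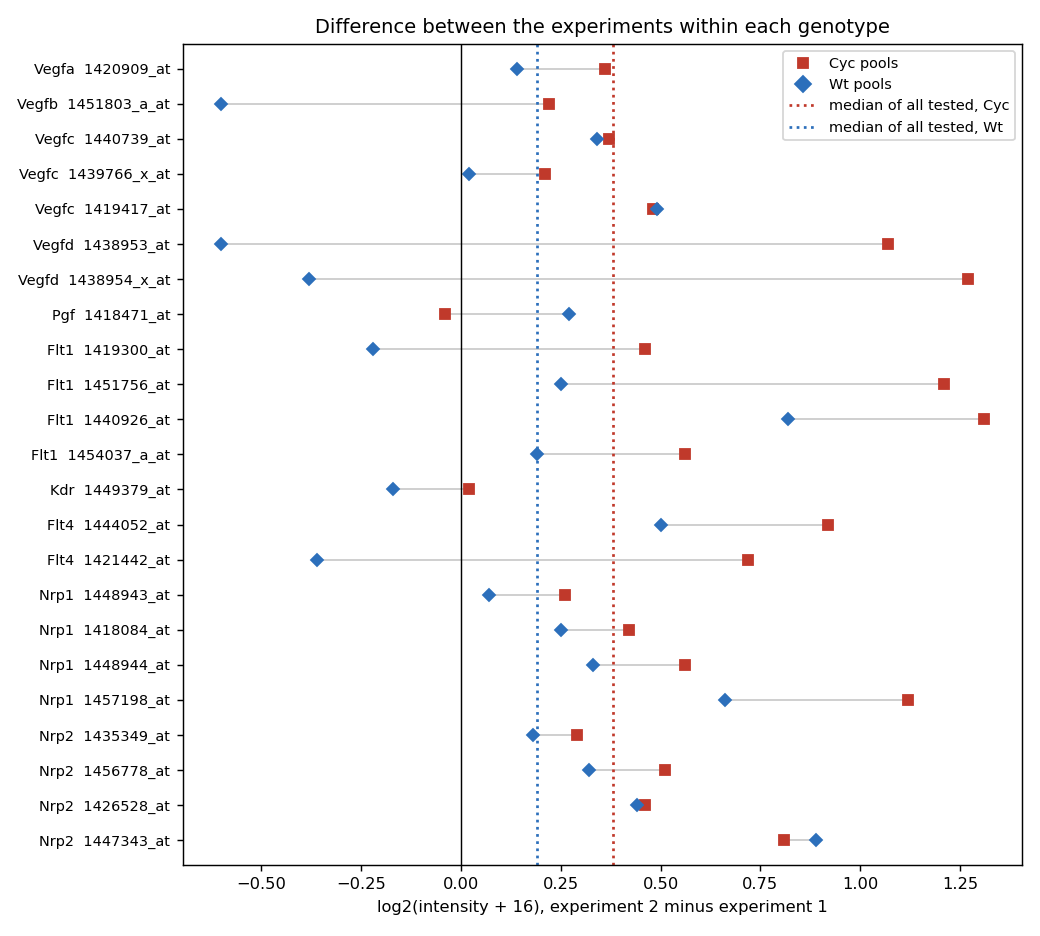
Difference of experiment 2 minus experiment 1 on the log2(intensity + 16) scale within the Cyc pools (red squares) and within the Wt pools (blue diamonds) for the 23 tested probe sets, with dotted lines at the medians of all tested probe sets, 0.38 in Cyc and 0.19 in Wt. The squares lie right of 0 in all rows but Pgf, and at both probe sets of Vegfd the square lies right of 0 and the diamond left of it.

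The arrays themselves differed in a like way. Over the tested probe sets the medians were 197.6 and 280.5 in the Cyc pools and 219.4 and 260.7 in the Wt pools, and the Cyc pools had 18460 and 21444 probe sets at 50 or more, against 19442 and 20200 in the Wt pools. The spiked poly-A controls had medians of 258.8 and -0.9 in the Cyc pools, against 231.9 and 0.3 in the Wt pools, so the replicate numbers follow the 2 experiments in this respect. The ratio of 3′ to 5′ signal of Actb was 1.43 and 1.61 in the Cyc pools and 1.27 and 1.76 in the Wt pools. Of the genes of the transgenes, Gnaq passed the thresholds at 1 of 7 probe sets, with 723.6 and 492.3 in the Cyc pools and 22.7 and 4.1 in the Wt pools, and Ccnt1 at 0 of 2. Ly6a, the gene of Sca-1, named here through a supplementary table of the study, had 13368 and 11588 in the Cyc pools and 14051 and 10562 in the Wt pools (log2 fold change 0.03, SE 0.27).

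The study calls the sorted cells undifferentiated progenitors, and the pools carried the markers of blood endothelium. All 15 markers of that list were at 50 or more in every pool, and their summed intensity was 54176 and 60243 in the Cyc pools and 55377 and 61334 in the Wt pools. Cdh5, the cadherin of endothelial junctions, had 8279.8 and 9014.8 in the Cyc pools and 8439.3 and 9156.9 in the Wt pools, with a log2 fold change of -0.02. The differences between the genotypes in this sum and in Cdh5 were smaller than those between the experiments. Esam and Egfl7, the next genes of the list by mean intensity, had -0.02 and -0.14. The median log2 fold change of the list was -0.14, beside -0.26 for the 3 receptors. One of the 15 passed, Plvap, the protein of endothelial diaphragms, with 724.2 and 1070.5 in the Cyc pools and 329.4 and 380.8 in the Wt pools (log2 fold change 1.28, SE 0.29). Plvap lost its call when the experiment 1 pool of Wt was left out (1.18) and, just short of 2-fold, when the experiment 2 pool of Cyc was.

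Of 5 markers of lymphatic endothelium on the array, where Flt4 is best known, 2 were at 50 or more in all pools and 2 under 50 in all. Prox1 and Reln stayed under 50 in all 4 pools, and Lyve1 had 36.2 and 92.8 in the Cyc pools and 57.5 and 47.5 in the Wt pools. Pdpn, podoplanin, which other cells also express, had 303.3 and 358.5 in the Cyc pools and 381.0 and 129.0 in the Wt pools. Mmrn1, multimerin, had 69.9 and 62.7 in the Cyc pools and 64.2 and 85.3 in the Wt pools. The 5 genes summed to 442 and 549 in the Cyc pools and to 528 and 291 in the Wt pools. Other cells were present as well. Smooth muscle and pericyte markers, 9 of 10 of them at 50 or more in all pools and Cnn1 under 50 in all, summed to 13888 and 26414 in the Cyc pools and to 11484 and 16157 in the Wt pools, and Kcnj8 and Abcc9 of this list passed as higher. Fibroblast markers, 9 of 10 at 50 or more in all pools, summed to 43616 and 43425 in the Cyc pools and to 44379 and 27876 in the Wt pools, and Col1a1 passed as higher. Cardiomyocyte markers, 9 of 12 at 50 or more in all pools and Ryr2 under 50 in all, summed to 3886 and 2680 in the Cyc pools and to 4113 and 2610 in the Wt pools, with Nppa passing as higher and Myl2 and Mb as lower. Col1a2 and Myl3 passed only at a probe set other than the one with the highest mean. These calls rest on an unadjusted p under 0.05 (limma) and fail correction. Among all tested probe sets 0.851% passed in either direction. The part of these cells in the levels of the family was not tested.

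The genes around the family were given as 7 lists with 113 genes, of which 96 were measured, 3 passed as higher in Cyc cells and 0 as lower, while 0.735% of all tested probe sets passed as higher. In the list of proteins that process or bind VEGF, 2 of 11 measured genes passed and the median was 0.16, against -0.02 over all tested probe sets. With each pool left out in turn this median ran from 0.02 to 0.47, and that over all tested probe sets from -0.19 to 0.18. Ccn2 (Ctgf), a matricellular protein that binds Vegfa, had 6071.5 and 7503.9 in the Cyc pools and 2388.7 and 1776.2 in the Wt pools (log2 fold change 1.70, SE 0.28). Thbs1, thrombospondin, an inhibitor of angiogenesis that binds Vegfa, had 369.8 and 514.4 in the Cyc pools and 273.3 and 123.0 in the Wt pools (1.17, SE 0.44). Both Cyc pools lie above both Wt pools in either gene, and both calls fail correction with an adjusted p of 1. Ccn2 passed in every fit that left out a pool, with at least 1.49, whereas Thbs1 did not pass without the Cyc pool (0.94) or the Wt pool (0.65) of experiment 2, with a pseudocount of 1, with no filter or in the methods' t-test. Sparc, a matrix protein that also binds VEGF, and the protease gene Adamts1 did not pass, with log2 fold changes of 0.14 and 0.12. Furin, Pcsk5 and Pcsk7, proprotein convertases that cut the precursors of Vegfc and Vegfd, had -0.02, 0.20 and 0.07, and none passed. Ccbe1, needed for the activation of Vegfc, stayed under 50 in all pools. Ccn2 and, in other lists here, Egln3, Plvap, Col1a1, Abcc9, Nppa, Mb and Myl2 are among the genes that the study listed as changed from the same data, and their counts are not independent evidence.

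**Figure D5:**
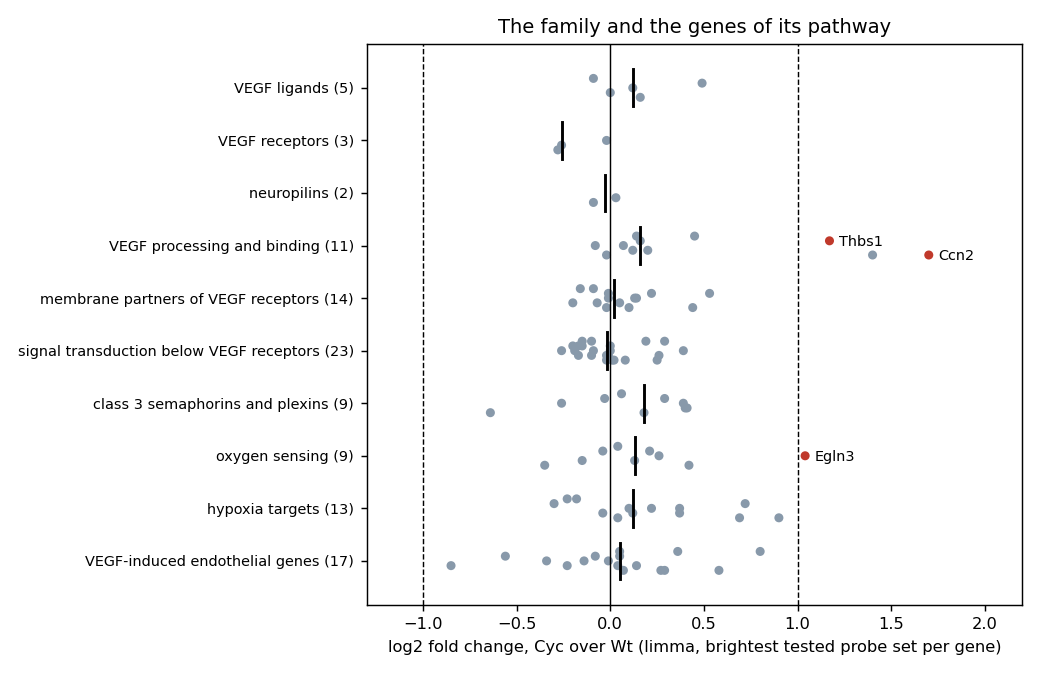
Limma's log2 fold change of Cyc over Wt for each measured gene of the family and of the 7 pathway lists, 1 point per gene at its probe set with the highest mean, with the median of each list as a black bar and the number of measured genes in brackets. Points past the thresholds are red and named (Thbs1, Ccn2 and Egln3), and the dashed lines mark a 2-fold change.

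Oxygen sensing was the other list with a call. Egln3, a prolyl hydroxylase that marks HIF-α subunits for destruction, had 133.6 and 139.7 in the Cyc pools and 53.0 and 63.7 in the Wt pools (log2 fold change 1.04, SE 0.23, limma, adjusted p = 1). The call was lost with a pseudocount of 50 (0.79) and when the experiment 1 pool of Wt was left out (0.94). It was 1 of 9 measured genes, and the median of the list was 0.13, or -0.12 to 0.20 with each pool left out in turn. Epas1, which encodes HIF-2α, had a log2 fold change of -0.15, Hif1a 0.42 and Egln1 -0.35, and none of these passed. Among 13 measured targets of hypoxia 0 passed and the median was 0.12. Of these Adm, the gene of adrenomedullin, had 960.5 and 744.4 in the Cyc pools and 470.8 and 545.0 in the Wt pools. Its log2 fold change was 0.72 and that of Ddit4, an inhibitor of mTOR, 0.90, both with an unadjusted p under 0.05 but short of 2-fold. Ldha, lactate dehydrogenase, had 0.10 and Ndrg1 -0.18. The study named Ddit4 and Ndrg1 in its functional enrichment of the genes that its own error model found changed in these data. Neither passed here at any tested probe set. Vegfa itself, a target of the same factors, had 0.16 as given above.

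Downstream of the receptors no gene passed the thresholds. Of 23 measured genes of signal transduction 0 passed, with a median of -0.02, and Nos3, the endothelial nitric oxide synthase, had 2490.5 and 3528.7 in the Cyc pools and 3067.6 and 3310.8 in the Wt pools (-0.10). Hspb1, Rac1 and Pxn, which have the highest mean intensities of this list, had log2 fold changes of -0.20, -0.17 and 0.00. Among the membrane partners of the receptors 0 of 14 passed, with a median of 0.02, and Cav1, caveolin, had -0.07, Cdh5 -0.02 and Ptprb, a phosphatase that acts on Kdr, -0.20. Of 9 measured class 3 semaphorins and plexins, the other ligands and partners of the neuropilins, 0 passed and the median was 0.18, or -0.12 to 0.38 with each pool left out in turn, with Plxnd1 at -0.03, Sema3g at 0.29 and Plxna2 at -0.64. Sema3a, the best known ligand of Nrp1, stayed under 50 in all pools.

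Genes that endothelial cells induce when VEGF acts on them formed the last list. Of 17 measured genes 0 passed, and the median was 0.05, with -0.11 in experiment 1 and -0.05 in experiment 2. Esm1, a proteoglycan gene of sprouting endothelium, had 665.9 and 485.1 in the Cyc pools and 278.9 and 368.3 in the Wt pools (log2 fold change 0.80), short of 2-fold though its unadjusted p was under 0.05. Egr3, an immediate early transcription factor, had 398.5 and 759.0 in the Cyc pools and 681.7 and 1487.8 in the Wt pools, a log2 fold change of -0.85 that did not pass. Nr4a1 had -0.34, Nrarp 0.07 and Pdgfb -0.56.

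Genes whose pattern over the 4 pools was most like that of a member were sought for Vegfc and Kdr among probe sets at least as bright. The measure was the root mean square difference of the log2 values, centred per probe set, so a value of 0 is an identical pattern. Of 574 candidates, the nearest to Vegfc were Cd93 at 0.0136, Ywhaz at 0.0326, Adam10 at 0.0414, Slc25a4 at 0.0479 and Itga6 at 0.0524. Cd93, a lectin-like membrane protein of endothelium, had 6181 and 7794 in the Cyc pools and 5679 and 7200 in the Wt pools. Of 134 candidates, the nearest to Kdr were Plpp3 at 0.0511, Adgrf5 at 0.0566, Gdpd3 at 0.0718, Mgll at 0.088 and Gnas at 0.091. Plpp3, a lipid phosphatase, had 8028 and 8006 in the Cyc pools and 9468 and 8413 in the Wt pools. Each pattern rests on 4 values alone.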

How the data were processed

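Sca-1 cells were profiled on Affymetrix Mouse 430 2.0 arrays from 250 ng of RNA. The deposited values are normalized probe set intensities on a linear scale, made by the authors in Resolver 7.2. The background correction and the summary method are not given in the sources used here, and the authors' error model could not be run from these values. Values under 0 were set to 0, 16 was added and log2 taken. After 64 control probe sets were left out, 20680 of 45037 reached 50 on 2 or more arrays and entered limma (version 3.58.1, R 4.3.3), by genotype alone, with 2 residual and 2.681 prior degrees of freedom, 95% intervals and Benjamini-Hochberg adjustment over all of them. Thresholds were those of the methods, 2-fold and an unadjusted p under 0.05. The fit was tested on simulated data. Genes were named from the annotation of the platform (1 symbol at 34945 probe sets), and Ly6a from the study's supplement. In lists a gene was represented by its probe set with the highest mean. Named were all members, and of each list the 3 genes with the highest mean and those that passed. Furin, Pcsk5, Pcsk7, Ccbe1, Nos3, Sema3a, Adm, Esm1 and Egr3 were added after their values were seen. The members and lists were chosen with earlier results of these data known.

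Replicate numbers stand for the 2 experiments, as the labels number them and the poly-A controls bear out, and the deviations of same-numbered pools from their group means correlated at 0.447. The number of arrays limits the precision. Alternatives were other pseudocounts (1 and 50), other filters, quantile normalization, scaling to the same median, a replicate block and an intensity trend. An ordinary t-test, arithmetic means and leaving out each array were also run. The t-test took the same log2 values, while the study tested its arrays with an error model.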

Additional observations from a re-analysis of the deposited data

How the results depend on the processing

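The count of family probe sets past the thresholds ran from 0 to 2 and that of genes from 0 to 1 when each pool was left out in turn, and both were 0 under all other alternatives run. With the replicate block 0 probe sets passed, Nrp1 1457198_at again had -0.60, and no call changed. Over all tested probe sets 152 were called higher and 24 lower in the 4 pools. These counts were 47 and 7 with an ordinary t-test on the same log2 values, none of them with an adjusted p under 0.05. Leaving out a Cyc pool moved the median log2 fold change of all tested probe sets to 0.18 without experiment 1 and to -0.19 without experiment 2, and leaving out a Wt pool to -0.11 and 0.08. Under other settings signs turned in 6 cases for single probe sets, all near 0, and in 2 for means over probe sets. Vegfb had 0.00 with a pseudocount of 1 and when scaled to the same median. Flt4 1444052_at had 0.01 with quantile normalization, with or without the block, 0.00 when scaled and 0.03 as a ratio of arithmetic means. As means over tested probe sets Flt4 had 0.19 and Nrp2 -0.10. The cause was not tested.

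With each pool left out in turn, log2 fold changes that turned sign ran from -0.01 to 0.34 for Vegfa, from -0.30 to 0.29 for Vegfb, from -0.06 to 0.31 and from -0.11 to 0.38 for Vegfc 1440739_at and 1419417_at, from -0.05 to 1.02 and from -0.24 to 1.03 for Vegfd 1438953_at and 1438954_x_at, and from -0.22 to 0.04 for Pgf. For Flt1 they ran from -0.99 to 0.22 at 1451756_at, from -1.0 to 0.31 at 1440926_at and from -0.24 to 0.32 at 1454037_a_at. For Flt4 1444052_at the range was -0.47 to 0.44 and for Nrp1 1448943_at -0.22 to 0.03. For Nrp2 it was -0.11 to 0.18 at 1435349_at, -0.44 to 0.07 at 1456778_at, -0.42 to 0.04 at 1426528_at and -0.50 to 0.39 at 1447343_at. Kdr kept its sign in every fit run. So did Vegfc 1439766_x_at, Flt1 1419300_at, Flt4 1421442_at and Nrp1 1418084_at, 1448944_at and 1457198_at. With a pool left out, its genotype's lone pool is assumed to vary like those of the other, and a signal near background, as for Vegfb and Flt4 1421442_at, limits what can be read.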
